A study of Mus musculus with 20 samples.

Results

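The annexins described here are the 10 genes Anxa1 to Anxa9 and Anxa11, measured in visceral adipose tissue (VAT) of 20 mice on arrays that carry 37,074 gene names. They were taken by gene name and are read by 28 of the 56,605 distinct probes, of which 26 were bright enough to be tested among 39,390. The family was chosen by the values of 1 probe, for the Anxa6 transcript ENSMUST00000148298, which separated the mice of both high-fat groups. All values of HFepa against HFoleic, and every value of that probe, are therefore given as a description, and nothing is read from how many probes passed the threshold in that contrast.

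All animals were male C57bl/6J mice of the F3 generation, and their age at sampling was not given in the sources used here. Ref mice (n = 6) came from the control lineage, whose growing diet was enriched with high-oleic sunflower oil over the generations, and ate a low-fat reference diet for several months. HFoleic mice (n = 6) came from the same lineage and ate a high-fat, high-sucrose diet. HFepa mice (n = 8) ate that high-fat diet too but came from the omega 3 lineage, in which fish oil rich in the fatty acid EPA replaced the sunflower oil. No group combined the omega 3 lineage with the reference diet, so that lineage was compared under the high-fat diet only. HFepa and Ref differ in both diet and lineage, which cannot be told apart in that contrast. Each array held the RNA of 1 mouse, and RNA below the integrity limit of the study was not hybridized. VAT came from the epididymal fat pad. The 8 adipocyte markers had a mean log2 intensity of 16.34 to 16.92 in every mouse. On dim probes a filter was set, which 2 of the 8 epididymis markers and 5 of the 7 testis markers passed. HFepa mouse 2 (8.36), Ref mouse 3 (8.11) and Ref mouse 6 (7.10) had the highest epididymis means. HFoleic mouse 5 (8.51), Ref mouse 6 (7.92), Ref mouse 3 (7.76) and HFepa mouse 4 (7.73) had the highest testis means. The part of such tissue in the differences was not tested.

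Annexins are cytosolic proteins that bind acidic phospholipids of membranes in the presence of calcium. They share a folded core that carries the calcium sites and differ in their N-terminal tails, through which several of them bind S100 proteins. They take part in vesicle traffic, membrane repair and the control of inflammation, and fat tissue holds them in adipocytes, stromal cells and macrophages alike.

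Values are normalised log2 intensities, so that a difference of 1 is a doubling of the signal. A probe was called when its adjusted p was under 0.05 by the moderated test of limma, adjusted by Benjamini–Hochberg over the 39,390 probes. Both contrasts against Ref use the same 6 Ref arrays.

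The annexins rose on the high-fat diet in the oleic lineage more often than they fell. Of the 25 tested probes other than the Anxa6 probe that led to the choice, 9 were higher and 3 were lower in HFoleic than in Ref, against 30.8% of all probes called in that comparison, 15.2% higher and 15.6% lower. The 3 lower probes belong to Anxa3, Anxa7 and Anxa9. For the Anxa7 probe, the fall is not described below as a change of Anxa7 RNA. The 9 higher probes belong to 5 genes, Anxa1, Anxa2, Anxa4, Anxa5 and Anxa6. The brightest probe of each gene was called higher for the same 5 of the 10 genes and called lower for none. Of all genes by the brightest probe, 15.2% were called higher and 16.7% lower. At an unadjusted p under 0.05 by limma, 1 annexin gene was lower, a cutoff at which the share of all genes was not counted. The median difference over the 25 probes was 0.092, beside −0.030 over all probes. RNA was taken from whole tissue, in which more cells of a type and more RNA per cell cannot be told apart.

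In HFepa against Ref, 2 of the 25 probes were called higher and 0 lower, where 2.26% of all probes were called, 0.96% higher and 1.3% lower. Both belong to Anxa1. At an unadjusted p under 0.05, limma counted 8 probes higher and 2 lower. The median difference over the 25 probes was 0.096, beside −0.014 over all probes. By the brightest probe, 1 of the 10 genes was called higher and 0 lower, beside 1.03% and 1.42% of all genes at the adjusted threshold. With an unadjusted p under 0.05 by limma, 5 genes were higher and 0 lower. The share of all probes or genes at the unadjusted cutoff was not counted, so nothing is read from these unadjusted counts. In HFepa against HFoleic, the contrast that led to the choice, 0.00254% of all probes were called, that is 1 probe, which was higher, and the 25 annexin probes had a median difference of 0.0048, given as a description. By the brightest probe, the mean of HFepa lay between those of Ref and HFoleic for Anxa1 to Anxa6 and for Anxa9. This order draws on the contrast that led to the choice and is a description. Its share over all genes was not counted, so nothing particular to the annexins is read from it.

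**Figure D1:**
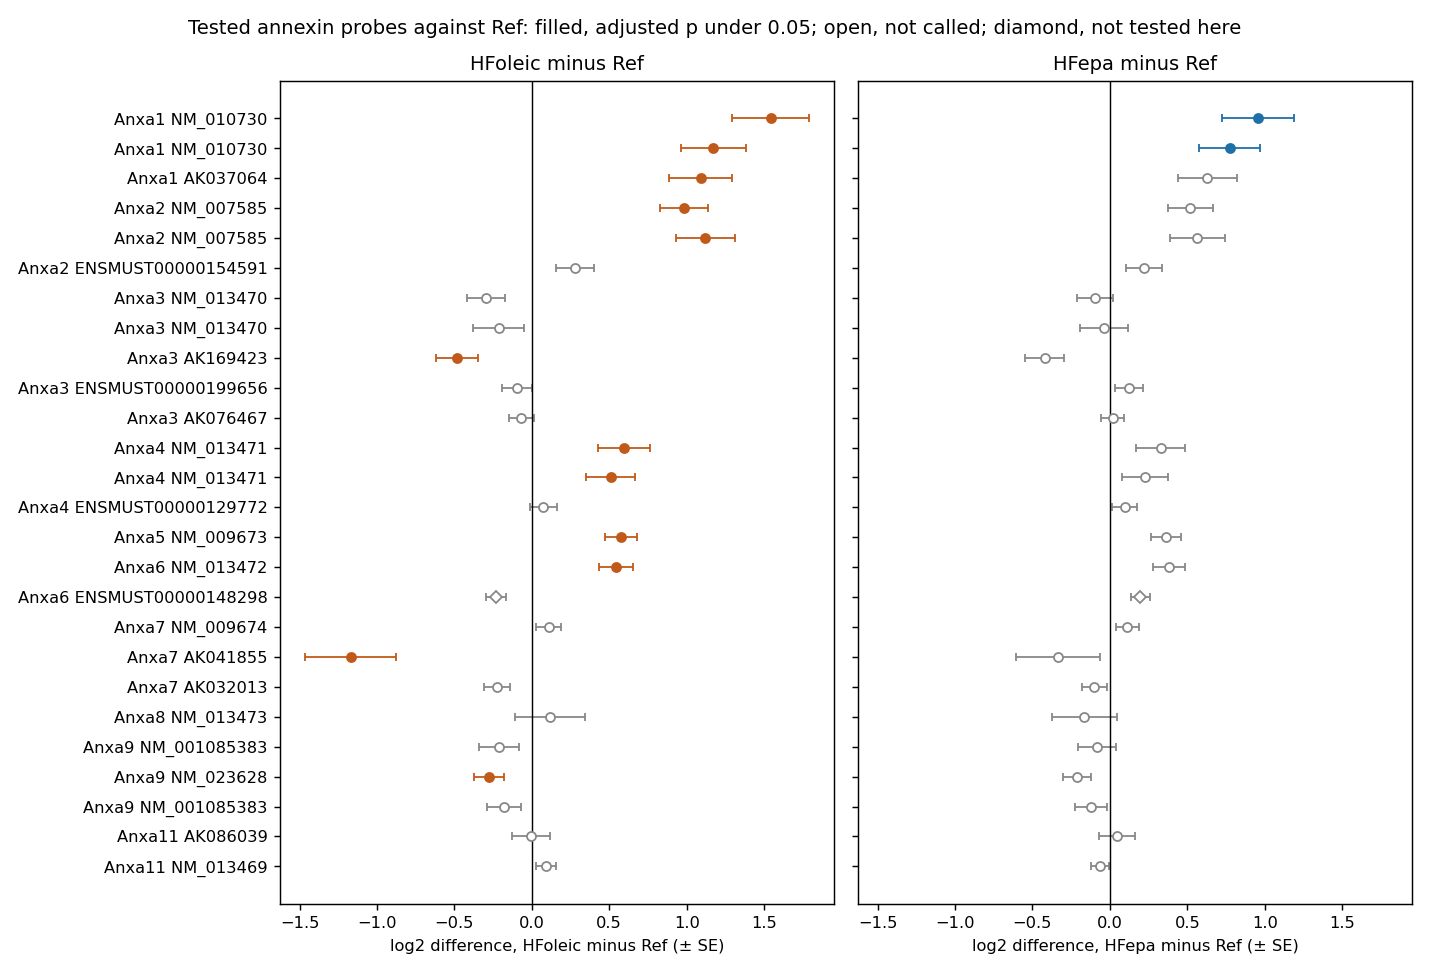
Log2 difference from Ref (x axis, ± SE) of each tested annexin probe in HFoleic (left) and HFepa (right), with the brightest probe of each gene on top. Filled points were called at an adjusted p under 0.05, open circles were not, and the diamond is the Anxa6 probe that led to the choice, shown without a test. The left panel holds 9 filled points to the right of 0 and 3 to the left, the right panel 2 and 0. The point farthest to the left is the Anxa7 probe for AK041855, whose fall is not described as a change of Anxa7 RNA.

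Anxa1 was the annexin with the largest rise among the brightest probes. Anxa1 is induced by glucocorticoids, restrains phospholipase A2 and acts outside the cell through the formyl peptide receptor Fpr2. It is read by 3 tested probes on chromosome 19 (mm9, minus strand), 1 of which is printed on 10 spots of every array. On that probe the Ref mice ranged from 14.28 to 15.41 with a median of 14.73, the HFoleic mice from 15.99 to 16.61 with a median of 16.28, and the HFepa mice from 14.49 to 16.48 with a median of 15.77. HFoleic and Ref did not overlap, while the HFepa mice were spread over both. The 10 spots of an array had an SD of 0.117 to 0.186, smaller than the spread between mice in any group.

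The difference of HFoleic from Ref on this probe was 1.54 (SE 0.25), a 2.91-fold higher signal with an adjusted p of 0.000476. HFepa exceeded Ref by 0.96 (SE 0.23, 1.94-fold, adjusted p = 0.0385). The first difference was 1.59, 1.37 and 1.59 within slides 1, 2 and 3, and the second was 1.14, 1.06 and 0.49. Slide 2 held 1 HFoleic mouse, so every difference that involves HFoleic within that slide rests on this mouse. The call in HFepa did not hold when single mice were left out: in 9 of 20 such fits the adjusted p was above 0.05. These were the fits without Ref mouse 3, 4, 5 or 6 or without HFepa mouse 1, 4, 5, 6 or 7, and the adjusted p went up to 0.098.

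A further Anxa1 probe, shown because its 60 bases lie 1514 bases apart on the genome at chr19:20448248-20449761 and so cross an exon junction, gave the same direction from spliced RNA:
Anxa1 NM_010730: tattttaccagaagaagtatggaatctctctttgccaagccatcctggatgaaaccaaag
On it HFoleic was 1.17 above Ref (SE 0.21, adjusted p = 0.000739) and HFepa 0.77 above Ref (SE 0.20, adjusted p = 0.0436). The call in HFepa was lost in 16 of the 20 fits that left out 1 mouse. The third probe, for the transcript AK037064, differed by 1.09 in HFoleic (adjusted p = 0.000961) and by 0.63 in HFepa (adjusted p = 0.0774). The remaining Anxa1 probe, for AK170612, was above background on 1 array and was not tested.

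Anxa2 forms a complex with S100a10 that binds plasminogen and its activator at the cell surface, and it also acts in membrane repair. Its brightest probe, on chromosome 9, read 16.15 to 17.09 in Ref (median 16.54), 17.33 to 17.77 in HFoleic (median 17.55) and 16.54 to 17.50 in HFepa (median 17.10). Again every HFoleic mouse was above every Ref mouse, and HFepa overlapped with both groups. HFoleic exceeded Ref by 0.98 (SE 0.16, 1.98-fold, adjusted p = 0.00045), and HFepa by 0.52 (SE 0.15, adjusted p = 0.0598). The probe below, at chr9:69330846-69331620, is shown because it spans 775 bases of the genome and so reads a spliced transcript:
Anxa2 NM_007585: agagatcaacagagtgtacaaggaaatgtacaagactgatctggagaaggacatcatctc
It was higher by 1.12 in HFoleic (adjusted p = 0.000534) and by 0.56 in HFepa (adjusted p = 0.0858). On this probe all 8 HFepa mice, from 11.81 to 12.77, lay below the 6 HFoleic mice, from 12.82 to 13.20, which is given as a description since that contrast led to the choice of the family. The dim probe for ENSMUST00000154591 differed from Ref by 0.28 in HFoleic (adjusted p = 0.0865) and by 0.22 in HFepa (adjusted p = 0.279).

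Anxa5, which binds phosphatidylserine and is used as a label of dying cells, has 1 probe on chromosome 3. It ranged from 15.07 to 15.75 in Ref (median 15.44), from 15.82 to 16.13 in HFoleic (median 15.99) and from 15.52 to 16.04 in HFepa (median 15.77). All HFoleic mice were above all Ref mice. The difference of HFoleic from Ref was 0.57 (SE 0.10, 1.49-fold, adjusted p = 0.000764), and that of HFepa was 0.36 (SE 0.10, adjusted p = 0.053). Without HFepa mouse 3, Ref mouse 7 or HFoleic mouse 1, Anxa5 was called in HFepa, with an adjusted p down to 0.0213. In 17 of the 20 fits that left out 1 mouse it was not called, with an adjusted p of up to 0.119.

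Anxa4, known from epithelia, where it takes part in the secretory pathway, was raised in HFoleic on both of its brighter probes on chromosome 6. The brightest read 11.98 to 12.22 in Ref (median 12.06), 12.23 to 12.92 in HFoleic (median 12.79) and 11.93 to 13.20 in HFepa (median 12.35). The lowest HFoleic mouse lay just above the highest Ref mouse, and the highest of all was an HFepa mouse. The difference from Ref was 0.59 in HFoleic (SE 0.17, 1.51-fold, adjusted p = 0.0112) and 0.33 in HFepa (SE 0.16, adjusted p = 0.241). On the other probe for NM_013471 it was 0.51 in HFoleic (adjusted p = 0.0204) and 0.23 in HFepa (adjusted p = 0.412). That call in HFoleic was lost without HFoleic mouse 4 or HFoleic mouse 6, where the adjusted p was at most 0.053. The probe for ENSMUST00000129772 differed by 0.075 in HFoleic (adjusted p = 0.554), and the one for ENSMUST00000127152 was above background on 0 arrays and was not tested.

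**Figure D2:**
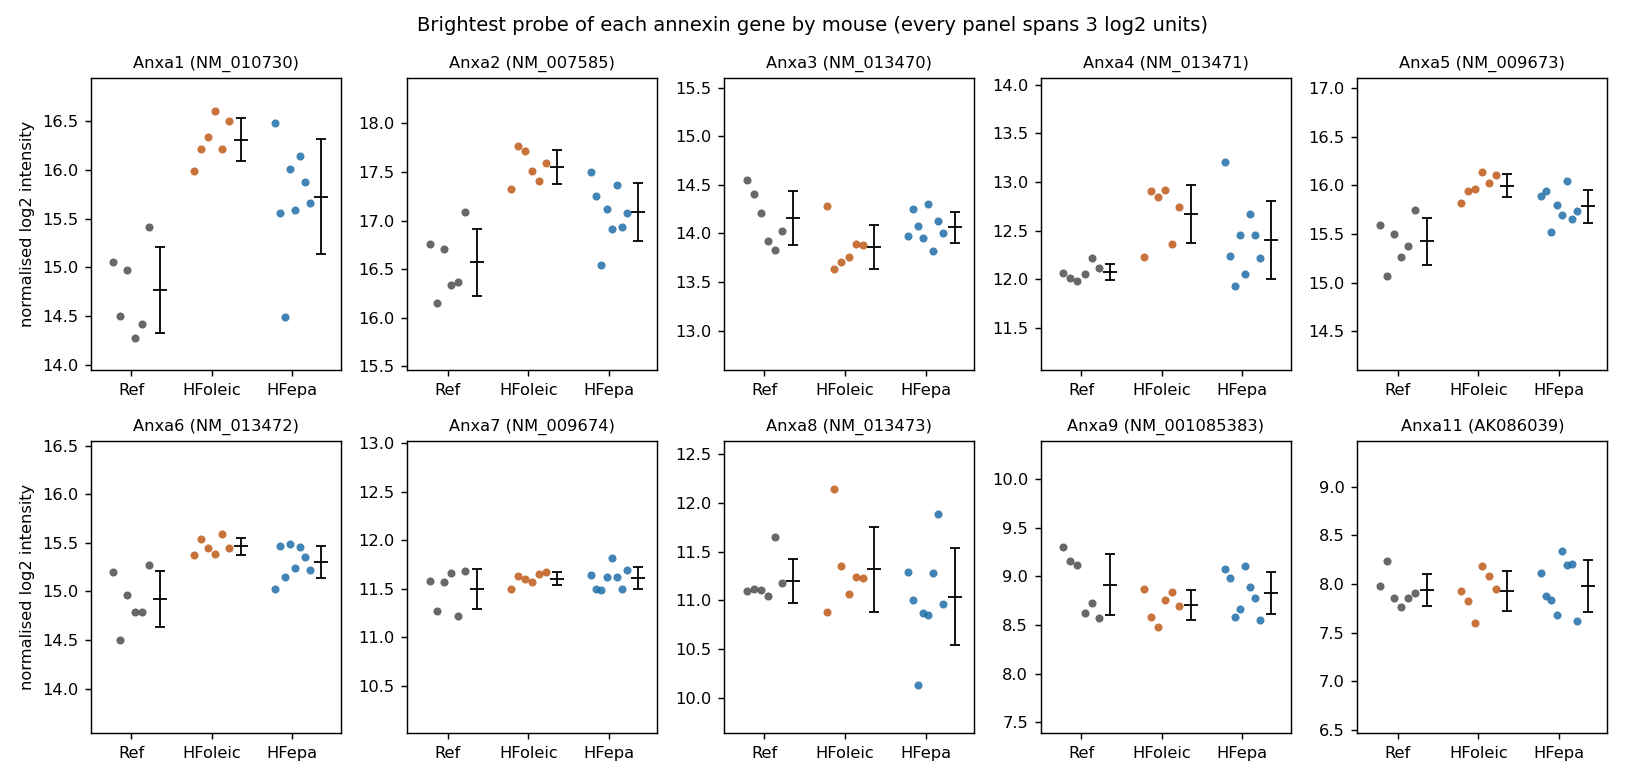
Normalised log2 intensity (y axis, every panel spans the same height of 3 log2 units) of the brightest probe of each of the 10 annexin genes, 1 point per mouse, with the mean and SD of the group beside the points. The HFoleic points lie above the Ref points for Anxa1, Anxa2, Anxa4, Anxa5 and Anxa6. How often all genes separate in this way was not counted. The 8 HFepa mice overlap with Ref in every panel.

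Anxa6, whose annexin core is duplicated, is known as a scaffold at the plasma membrane and late endosomes, where it recruits Tbc1d15 and binds Rasa1 and protein kinase C alpha. It is read by 2 probes on the minus strand of chromosome 11 in mm9, with 12,091 bases between their starts. The probe that led to the choice lies at chr11:54804707-54804766 and the brighter one, for NM_013472, at chr11:54792616-54792675. Both are shown because they gave opposite pictures of 1 gene, the first in full and the brighter by its first 30 bases:
Anxa6 ENSMUST00000148298: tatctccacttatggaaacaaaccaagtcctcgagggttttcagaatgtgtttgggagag
Anxa6 NM_013472: ccacataaccctgcctgacttgagctttgt

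The brighter Anxa6 probe read 14.50 to 15.27 in Ref (median 14.88), 15.38 to 15.59 in HFoleic (median 15.45) and 15.03 to 15.48 in HFepa (median 15.30). HFoleic did not overlap with Ref, and HFepa overlapped with both. HFoleic exceeded Ref by 0.54 (SE 0.11, 1.46-fold, adjusted p = 0.00145), with 0.55, 0.51 and 0.64 within the 3 slides. HFepa exceeded Ref by 0.38 (SE 0.10, adjusted p = 0.0544). This probe was not called in HFepa but lay near the threshold. With the slide as a block the adjusted p was 0.0479, and with the replicate number as a block 0.0679. It was 0.0403 without Ref mouse 2, 0.0208 without Ref mouse 7 and 0.0325 without HFepa mouse 3. In 17 of the 20 fits that left out 1 mouse the probe was not called, with an adjusted p of up to 0.121.

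The probe that led to the choice ran the other way in HFoleic. It read 10.48 to 10.69 in Ref (median 10.55), 10.22 to 10.53 in HFoleic (median 10.27) and 10.59 to 10.91 in HFepa (median 10.77). The lowest of the 8 HFepa values exceeded the highest of the 6 HFoleic values, and each of these groups overlapped with Ref. The difference of HFepa from HFoleic was 0.43 (SE 0.06), and it was 0.41, 0.48 and 0.44 within the 3 slides, while the brighter probe differed by −0.16 (SE 0.10). Against Ref the choosing probe differed by −0.23 in HFoleic (SE 0.06) and by 0.20 in HFepa (SE 0.06). Over the 20 arrays the probes had a Pearson correlation of −0.175 with each other, given as a description of mice in 3 groups. The mean of both probes, a description too since it holds the choosing probe, differed from Ref by 0.16 in HFoleic and by 0.29 in HFepa.

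**Figure D3:**
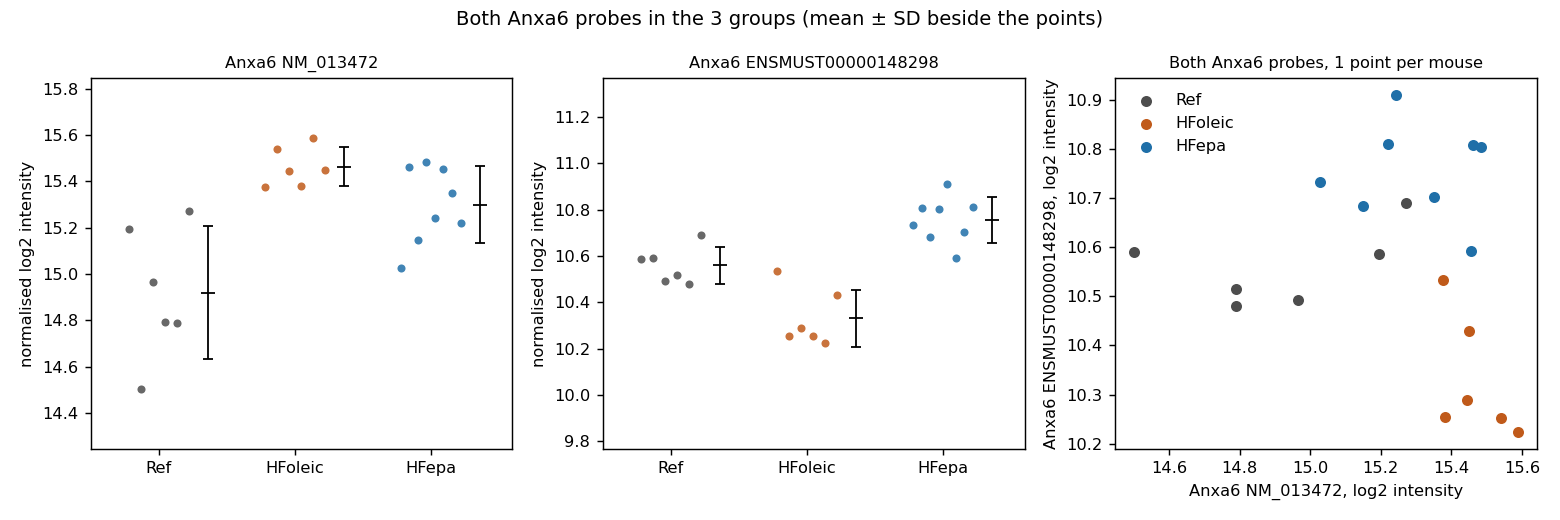
Normalised log2 intensity of both Anxa6 probes by group, with the mean and SD beside the points (left and middle), and the probes against each other with 1 point per mouse (right). On NM_013472 the HFoleic mice sit above the Ref mice, from 15.38 to 15.59. On ENSMUST00000148298 they sit at 10.22 to 10.53, below the HFepa mice, which sit at 10.59 to 10.91.

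The genes whose brightest or other probe followed each Anxa6 probe most closely over the 20 arrays differed. For NM_013472 they were Srpx2 (Pearson r = 0.958), Snrpn (r = 0.935), Sparc, a matrix glycoprotein (r = 0.935), Prr32 (r = 0.933) and Cd59a (r = 0.933). For ENSMUST00000148298 they were Adam6b (r = 0.862), Gjc1 (r = 0.819), Actn4, an actin crosslinker (r = 0.812), 2700081O15Rik (r = 0.81) and A630052C17Rik (r = 0.803). These are the highest of 39,390 values in arrays that share the 3 group means, and nothing about shared function follows from them.

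Anxa7, also called synexin, promotes membrane fusion and binds the calcium sensor sorcin (gene Sri). Its 3 probes on the minus strand of chromosome 14 disagreed. The brightest, for NM_009674, differed from Ref by 0.11 in HFoleic (adjusted p = 0.334) and 0.11 in HFepa (adjusted p = 0.418). The probe for AK032013 differed by −0.22 in HFoleic (adjusted p = 0.0537). The probe for AK041855, which starts 14,946 bases from that of NM_009674, read 11.56 to 12.11 in Ref (median 11.89), 9.87 to 11.28 in HFoleic (median 10.76) and 10.65 to 12.94 in HFepa (median 11.31). On it every HFoleic mouse was below every Ref mouse, by 1.17 on average (SE 0.29, adjusted p = 0.00543), the largest fall among the annexin probes. HFepa was the group with the widest spread and differed by −0.33 (SE 0.27, adjusted p = 0.523).

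The AK041855 probe, unlike the others for Anxa7, holds a run of alternating A and G, given in capitals. It is shown in full at chr14:21290387-21290446, and the other Anxa7 probes by their first 30 bases:
Anxa7 AK041855: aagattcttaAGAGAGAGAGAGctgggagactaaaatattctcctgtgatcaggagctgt
Anxa7 NM_009674: gtgtaaaagccatatcaatgacgtagtaat
Anxa7 AK032013: gtcgtcctcctggctctagaaattacattc

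The probes that followed it most closely over the 20 arrays, a search made after its values were seen, belong to other genes: Pou4f1 (r = 0.992), Nudt5 (r = 0.992), Ddx25 (r = 0.991) and Rabgap1 (r = 0.988). Each holds a similar run, as these stretches of 30 bases show, with the alternating run in capitals:
Pou4f1: agaaagaaAGAGAGAGAGAGAGAaatgtgg
Nudt5: gaagGAGAGAGAGAGAGcacacctgcctat
Ddx25: gaatattgaAGAGAGAGAGAGAagagaggc
Rabgap1: gagtgagtcAGAGAGAGAGAGgaggaaaac

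A run of 5 AG repeats was searched in all tested probes as printed on the array, and then as its reverse complement. Apart from the Anxa7 probe, 47 probes held it. Their median correlation with the Anxa7 probe over the 20 arrays was 0.969, beside 0.062 over all probes, and 38 of them exceeded 0.9, as did 77 of all probes (0.195%) with the Anxa7 probe counted. Their median difference of HFoleic from Ref was −1.07, and 39 of the 47 (83%) were called lower, beside 15.6% of all probes. In HFepa against Ref their median difference was −0.30. The 42 probes with the reverse complement alone had a median difference of 0.15 in HFoleic. Of these 42, 6 were called higher, a share close to the 15.2% of all probes called higher. Of the 28 annexin probes, the AK041855 probe is the only 1 with the run. The run was noticed after the values were seen, so these counts are a description. Its part in the fall of the Anxa7 probe was not tested, and the fall is not described here as a change of Anxa7 RNA.

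**Figure D4:**
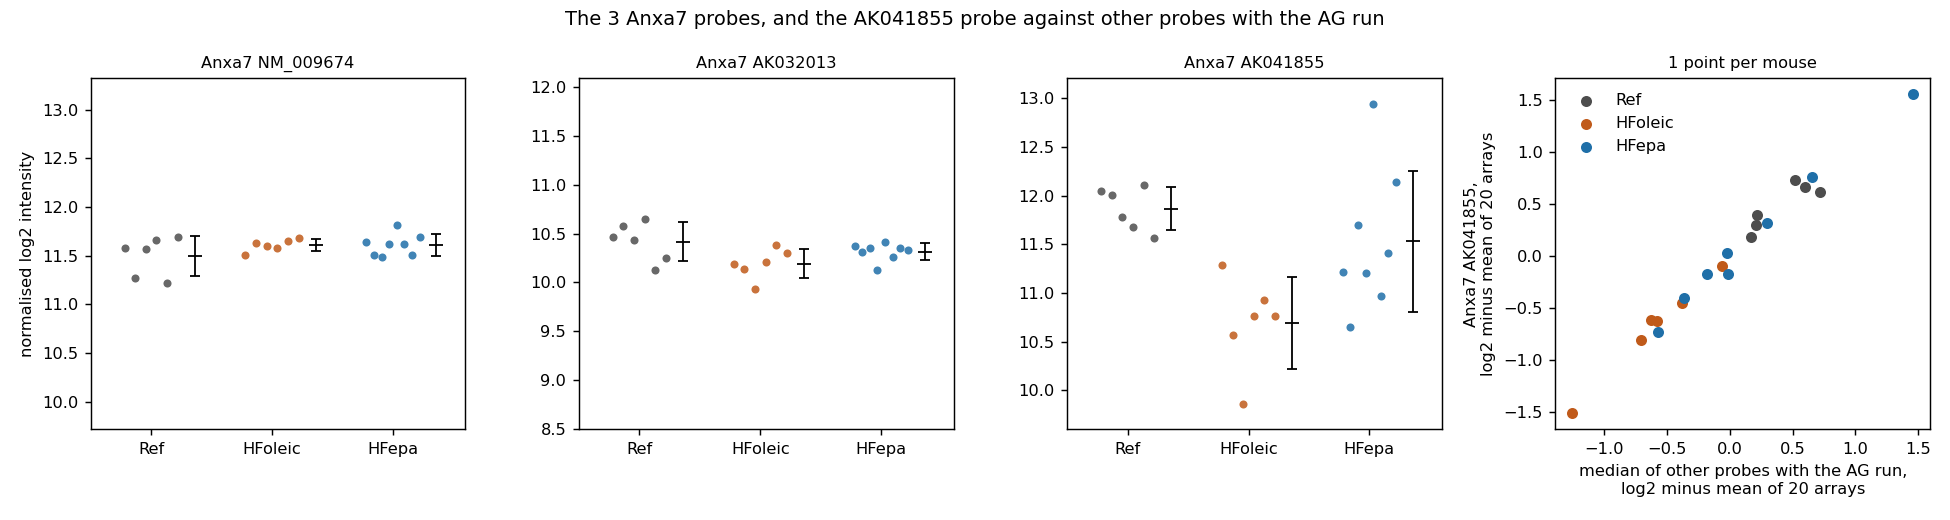
Normalised log2 intensity of the 3 Anxa7 probes by group (left 3 panels, all of the same height in log2 units, mean and SD beside the points), and the AK041855 probe against the median of the 47 other probes with the AG run, both as log2 minus the mean of the 20 arrays (right, 1 point per mouse). NM_009674 lies at similar levels in all groups, AK041855 is lower in HFoleic, and on the right the mice of the 3 groups fall along 1 line.

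The remaining annexins showed smaller differences. Anxa3 has 5 tested probes, and the brightest differed from Ref by −0.30 in HFoleic (SE 0.12, adjusted p = 0.0724) and by −0.094 in HFepa (adjusted p = 0.693). It was called lower in HFoleic with the slide as a block (adjusted p = 0.0247) and without HFoleic mouse 1, Ref mouse 5 or Ref mouse 6. In 17 of the 20 fits that left out 1 mouse it was not called, with an adjusted p of up to 0.176. The Anxa3 probe for AK169423 read 9.93 to 10.70 in Ref, 9.38 to 10.03 in HFoleic and 9.57 to 10.11 in HFepa. It was called lower in HFoleic with overlapping groups, a difference of −0.48 (SE 0.14, adjusted p = 0.0107), and differed by −0.42 in HFepa (adjusted p = 0.0766, and 0.047 with the slide as a block). The other 3 Anxa3 probes differed from Ref by −0.21 to 0.12 in both contrasts, and none was called.

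Anxa9, whose calcium sites have diverged from those of the other annexins, has 3 tested probes. The one for NM_023628 was called lower in HFoleic (−0.28, SE 0.10, adjusted p = 0.0349) with overlapping groups of 8.11 to 8.67 in Ref and 7.97 to 8.20 in HFoleic. That call was lost in 7 of the 20 fits that left out 1 mouse, those without Ref mouse 2, 3 or 4 or HFoleic mouse 4, 5, 6 or 8, with an adjusted p of up to 0.0895. The brightest Anxa9 probe differed by −0.21 in HFoleic (adjusted p = 0.235).

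Anxa8, a probe at 11.05 to 11.65 in Ref, 10.88 to 12.14 in HFoleic and 10.13 to 11.89 in HFepa, differed by 0.12 in HFoleic (SE 0.22, adjusted p = 0.734) and by −0.16 in HFepa (adjusted p = 0.707). Its difference in HFoleic was −0.047 without HFoleic mouse 4, which held the highest value. Anxa11, which links RNA granules to lysosomes and binds Pdcd6, had the smallest difference in HFoleic among the brightest probes. Its brighter probe differed by −0.0069 in HFoleic (SE 0.12, adjusted p = 0.974), a sign that turned in some alternatives, and by 0.047 in HFepa (adjusted p = 0.858). The probe for NM_013469 differed by 0.092 and −0.065. Over the 20 arrays the brighter Anxa11 probe had a mean of 7.95 and the one for NM_013469 a mean of 6.14.

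Partners of the annexins were read from a list of 36 genes, of which 33 were tested by their brightest probe. In HFoleic against Ref 11 were called higher and 4 lower, beside 31.8% of all genes called by the brightest probe, 15.2% higher and 16.7% lower. In HFepa 3 were called higher and 0 lower, beside 2.46% of all genes. At an unadjusted p under 0.05, limma counted 12 higher and 1 lower in HFepa, a cutoff at which the share of all genes was not counted. The median differences were 0.13 and 0.070.

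Among the 6 S100 proteins, which bind annexin tails, S100a4 was higher in HFoleic by 1.90 (SE 0.42, adjusted p = 0.00239), S100a6 by 0.76 (adjusted p = 0.00496) and S100a11, a partner of Anxa1, by 0.33 (adjusted p = 0.0244). S100a1 was lower, with a difference of −1.25 (SE 0.20, adjusted p = 0.000481). S100a10, the partner of Anxa2, differed by 0.13 (adjusted p = 0.361), while Anxa2 itself was called. In HFepa, S100a6 was called (0.68, SE 0.17, adjusted p = 0.0443) and S100a10 differed by 0.21 (adjusted p = 0.205).

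Of the 3 formyl peptide receptors, Fpr2 was the only 1 above the filter and differed by −0.033 in HFoleic (adjusted p = 0.907). In the plasminogen system, Plaur, the urokinase receptor, was higher in HFoleic by 0.61 (adjusted p = 0.0474). Plasminogen itself (Plg) differed by 0.0090 (adjusted p = 0.948) on a dim probe, with means of 5.64 in Ref and 5.65 in HFoleic.

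The list of membrane repair and scaffold genes had 3 of 12 called higher and 1 lower in HFoleic, a share close to the 31.8% of all genes called. Myof, a ferlin that seals membranes, rose by 1.50 (SE 0.36, adjusted p = 0.00395), Capn1, a calcium-dependent protease, by 0.59 (adjusted p = 0.00328) and Cavin1, a caveola coat protein listed as Ptrf, by 0.35 (adjusted p = 0.00184). The other Myof probe, for AK041571, differed by only 0.13 in HFoleic (adjusted p = 0.245). Dysf, another ferlin of membrane repair, fell by 0.51 on the log2 scale (adjusted p = 0.0303). Cavin1 was also called in HFepa (0.31, SE 0.068, adjusted p = 0.027), while Myof differed by 0.71 there (adjusted p = 0.231). The other Cavin1 probe differed by 0.21 in HFepa (adjusted p = 0.172).

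Among the 8 lipid and signalling partners, 4 were called higher and 1 lower in HFoleic, beside 15.2% and 16.7% of all genes. Tpd52, a binding partner of Anxa6, rose by 1.30 (SE 0.26, adjusted p = 0.00154), and Pla2g4a, the cytosolic phospholipase A2, by 0.72 (adjusted p = 0.016). The other Pla2g4a probe, for ENSMUST00000142040, differed by only 0.073 (adjusted p = 0.505). Rasa1, a Ras GTPase-activating protein, rose by 0.62 (adjusted p = 0.00562) and Sri by 0.42 (adjusted p = 0.00063), the latter with 0.33 in HFepa (SE 0.068, adjusted p = 0.0245). The Rasa1 probe for ENSMUST00000132711 differed by 0.22 in HFoleic and was not called (adjusted p = 0.0662). Tbc1d15, a Rab7 GTPase-activating protein, fell by 0.34 on the log2 scale (adjusted p = 0.024). Of the other 2 annexins on the array, Anxa13 differed by −0.72 in HFoleic (SE 0.38, adjusted p = 0.159), and Anxa10 was not bright enough to be tested.

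Most macrophage markers were also higher on the high-fat diet in the oleic lineage. In HFoleic against Ref, 7 of 8 macrophage markers and 7 of 7 markers of lipid-associated macrophages were called higher, beside 15.2% of all genes. The mean log2 intensity of the macrophage list was 11.62 to 12.22 in Ref, 12.63 to 13.81 in HFoleic and 11.51 to 13.78 in HFepa. That of the lipid-associated macrophage list was 9.58 to 10.56, 12.14 to 13.92 and 10.18 to 14.30. HFoleic mice were above all Ref mice on both lists, and HFepa mice reached into the ranges of both groups. HFepa mice 1 and 6 had the highest macrophage levels of their group, 13.78 and 13.40, and also its highest values on the brightest Anxa1 probe, 16.48 and 16.14. HFepa mouse 3, with the lowest Anxa1 value, had the lowest lipid-associated macrophage level of its group, 10.18. On the macrophage list, however, it stood at 12.22, and other HFepa mice were lower. The lowest there was HFepa mouse 8 at 11.51, with an Anxa1 value of 15.67, and HFepa mouse 4 stood at 12.20 with 16.01. The part of macrophages in the annexin differences was not tested.

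Of the progenitor and fibroblast markers 3 of 8 were called higher in HFoleic, with a list level of 12.39 to 12.96 in Ref and 12.91 to 13.53 in HFoleic, and 2 of 8 adipocyte markers were called lower, beside 15.2% of all genes higher and 16.7% lower. Of the mesothelial, endothelial, T cell and B cell markers 0 were called by limma in HFoleic, with 1 mesothelial and 1 B cell marker lower at an unadjusted p under 0.05, and of 5 tested neutrophil markers 1 was higher and 1 lower. In HFepa against Ref, 0 of the 67 tested markers of all lists were called by limma, where only 2.46% of all genes were called. With an unadjusted p under 0.05 by limma, 13 markers were higher and 4 lower. The share of all genes at that cutoff was not counted in either contrast. The part of any of these cell types was not tested.

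**Figure D5:**
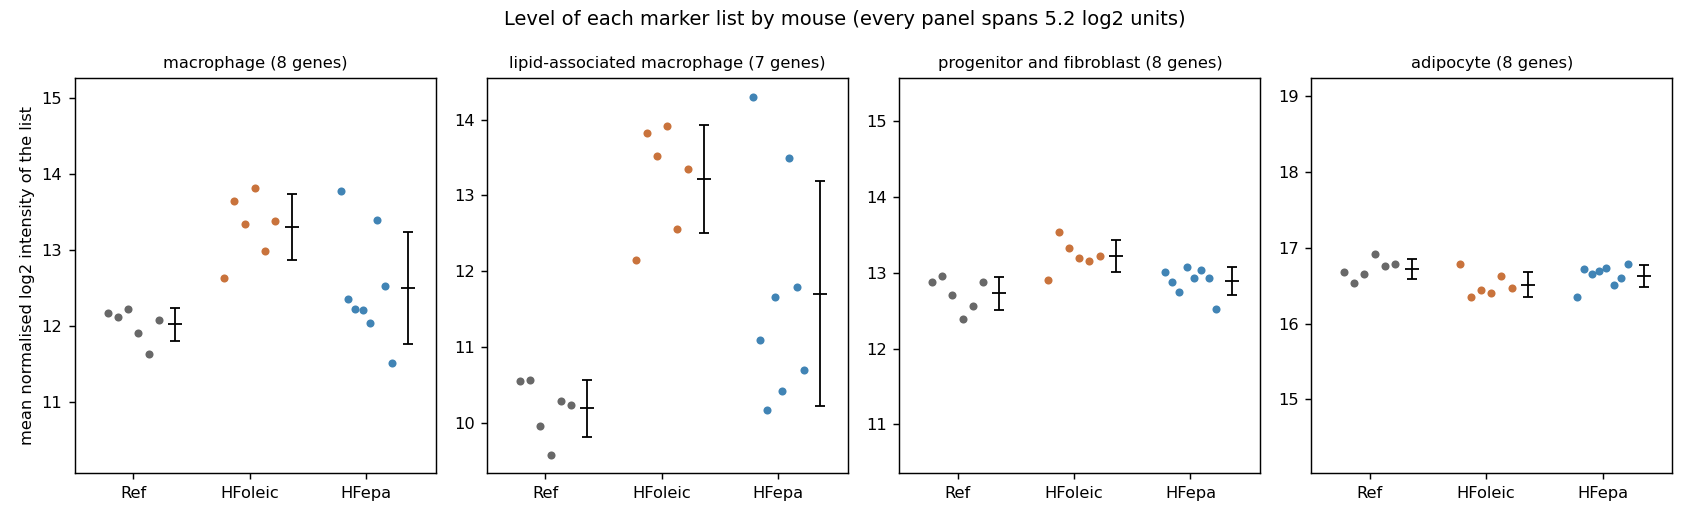
Mean normalised log2 intensity of 4 marker lists (y axis, every panel spans the same height of 5.2 log2 units), 1 point per mouse, with the mean and SD beside the points. The macrophage lists are higher in all 6 HFoleic mice than in the 6 Ref mice, and HFepa mice 1 and 6 stand within the HFoleic range or above it. Adipocyte markers keep to 16.34 to 16.92.

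The bases before the start site of 8 of the 10 genes were in the RefSeq promoter table (GRCm38.p6), in 11 entries. Those of Anxa1 and Anxa2 are shown because these genes rose most, as the 250 bases before the start at chr19:20390672-20390921 (minus strand) and chr9:69453433-69453682 (plus strand). Capitals mark matches on either strand to the letters TATAAA of the TATA box, CCAAT of the CCAAT box, GGGCGG of the GC box or TGANTCA of the AP-1 site:
Anxa1: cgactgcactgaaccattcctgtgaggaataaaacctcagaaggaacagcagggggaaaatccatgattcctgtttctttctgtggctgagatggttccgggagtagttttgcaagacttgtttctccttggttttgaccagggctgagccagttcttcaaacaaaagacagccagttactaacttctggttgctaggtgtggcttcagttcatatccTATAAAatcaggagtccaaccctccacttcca
Anxa2: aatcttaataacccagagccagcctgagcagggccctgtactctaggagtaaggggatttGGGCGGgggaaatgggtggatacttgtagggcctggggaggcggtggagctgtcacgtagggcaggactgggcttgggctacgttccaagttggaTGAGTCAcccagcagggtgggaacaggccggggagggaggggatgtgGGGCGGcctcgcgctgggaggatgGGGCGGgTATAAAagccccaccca
TATAAA began 32 bases before the start of Anxa1 and 17 before that of Anxa2, and 12.4% of the 32,851 promoters in the table hold it in this window. GGGCGG matched 3 times in Anxa2 (32.7% of promoters hold it) and TGANTCA once (6.75%), and CCAAT, held by 33.8%, matched in neither. No matches overlapped. The entries of Anxa4 and Anxa5, which also rose, held none of these letters. The matches are a description of the letters in these windows.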

How the data were processed

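Gene expression was measured in VAT of 20 mice on 1-colour Agilent SurePrint G3 arrays with Cy3. The authors extracted the spot intensities with Agilent Feature Extraction 10.10.1.1, and the deposited median intensity is linear and not normalised. They also deposited log2 values, filtered and quantile normalised, whose filter rule is not given in the sources used here. These served as an alternative.

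Control spots were left out and spots marked by the software were set to missing. A probe was tested when well above background on at least 6 arrays. Log2 median intensities were quantile normalised and the spots of a probe averaged. Limma 3.58.1 in R 4.3.3 was then run on the 20 arrays together, giving each group its own mean. Names and positions are those of the files (mm9). A gene with several probes is led by its brightest. All annexin probes are reported, partner genes by list with values for those called, and the 5 genes most like each Anxa6 probe. The values of 1 partner gene are not reported here, though the list counts include it. The members and all gene lists were chosen with earlier results of these data known. The steps were tested on simulated data.

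The share of spots well above background was 66.1% to 71.9% per array, and no annexin spot was saturated. The number of mice limits the precision. Nothing says that mice of a group came from separate litters, so p-values measure the spread between these mice. The arrays lie on 3 slides, each with all 3 groups, but slide 2 holds only 1 HFoleic array. Alternatives changed the signal, background correction, normalisation, filter, marked spots, blocks, array weights, groups fitted and the probe of a gene, or left out 1 mouse. Plots were drawn with matplotlib 3.10.9.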

Additional observations from a re-analysis of the deposited data

Results flagged for a closer look

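Over 54 groups of values searched, 2 mice lay far from the others of their group, where chance would mark about 1 group in 20. HFepa mouse 3 had the lowest Anxa1 value on the brightest probe, 14.49, with the next HFepa mouse at 15.56. Ref mouse 6 had the highest Anxa8 value of its group, 11.65, with the next Ref mouse at 11.18. Both are given as values without an explanation.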

How the results depend on the processing

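In HFoleic vs. Ref the number of annexin probes called was between 8 and 17 over the 30 alternatives, against 12 as reported, and between 10 and 14 when 1 mouse was left out. By gene it was 5 as reported and 5 or 6 without 1 mouse, and 15 partner genes became 12 to 17. The count by gene was 4 with the replicate number as a block and 7 with array weights. When the probes of a gene were averaged, 4 annexin genes were called higher and 1 lower, where the mean of Anxa6 holds the probe that led to the choice. In HFepa vs. Ref the calls depended on the processing: 2 annexin probes became 0 to 7 without 1 mouse, with 7 without HFepa mouse 3 and 6 without Ref mouse 7. They became 0 with the processed signal minus its 75th percentile, with median centring, without the filter on dim probes and with only the compared groups in the fit, and 4 with normexp or with the values of the authors. By gene, 1 became 0 to 4 without 1 mouse, 0 under those first 4 settings, 3 with normexp or the values of the authors, and 2 with array weights, with a slide block or when the probes of a gene were averaged, where 1 of the 2 was Anxa6, whose mean holds the probe that led to the choice and supports no call. The 3 partner genes became 0 to 7 without 1 mouse, 1 with the processed signal or median centring and 0 with only the compared groups. In HFepa vs. HFoleic, the contrast that led to the choice, 0 of 25 probes were called (0.00254% of all probes; 2 higher and 6 lower at an unadjusted p under 0.05 by limma), 0 to 2 without 1 mouse (2 without HFepa mouse 1), 5 with array weights and 1 with a slide block, all given as a description from which nothing is read. With the replicate number as a block, 8 annexin probes and 9 partner genes were called in HFoleic. In HFepa 0 annexin probes, 0 annexin genes and 0 partner genes were called with that block. Whether the numbers pair the mice is not stated in the sources used here. Deviations of same-numbered mice correlated between −0.47 and 0.14 over 4 pairs of HFoleic and Ref. They correlated between −0.43 and 0.15 over 6 pairs of HFepa and Ref, and between −0.59 and 0.56 over 6 pairs of HFepa and HFoleic. Array weights, the counts by gene and the alternatives for called probes other than the brightest were added after seeing the data. Averaging its probes, AK041855 among them, turned Anxa7 to −0.43 in HFoleic, which was called lower (adjusted p = 0.011), and to −0.11 in HFepa, which was not called. The other directions that turned belonged to differences that were not called under any of these settings. Anxa8 in HFoleic ranged from −0.047 to 0.21 when 1 mouse was left out, negative without HFoleic mouse 4. Anxa11 AK086039 in HFoleic ranged from −0.059 to 0.058 when 1 mouse was left out and was 0.023 with the replicate block or array weights and 0.043 as the mean of its probes. In HFepa it ranged from −0.0039 to 0.11 when 1 mouse was left out and was −0.0088 as the mean of its probes. The causes were not tested. Over 17 tested probes, 491 of 520 such values in HFoleic and 462 of 520 in HFepa kept their direction and side of the threshold. Dim probes limit what can be seen, since 2 annexin probes were not tested.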
